A study of Mus musculus with 2 samples.

Results

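Among the immune cells of B16F10 mouse melanomas, a set of macrophages carried the C1q complement genes but almost no RNA of Folr2, Cd163 and Cbr2. A cell was taken into this set when it held at least 10 molecules of C1qa, C1qb and C1qc together, under 2 molecules of Folr2, Cd163 and Cbr2 together, and at most 1 molecule of the T cell genes Cd3e, Cd3d and Trac. Cells with more than 1 sample tag or none, with fewer than 200 genes or with over 25% of molecules from mitochondria had been left out. The rule found 846 cells, 8.06% of the 10491 cells that passed the same tag and quality limits, of 14899 cells in the table. They are called Folr2-low macrophages here, and 520 cells that passed the same rule with 2 or more molecules of Folr2, Cd163 and Cbr2 are called Folr2-high macrophages. Monocytes, 979 cells, held at least 10 molecules of Lyz2, at least 3 of Ly6c2 and Chil3 together, and fewer than 10 of the C1q genes. The cells were thus chosen by measured molecule counts of the genes in these gates, which describe the cells and are no finding about them.

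The tumours had grown under the skin of female C57BL/6 mice from B16F10 cells, a transplantable pigmented melanoma line, with a Tyr knockout, with an Oca2 knockout or wildtype (WT), in 3 mice for each tumour genotype. Tyr encodes tyrosinase, the key enzyme of melanin synthesis, and Oca2 a melanosome membrane protein. CD45+ cells were sorted, each genotype received its own sample tag, and the whole transcriptome of all cells was captured at once as unique molecules. Which genotype carried tag 8, 9 or 10 is not given in the sources used here, and nothing in the labels separates the mice within a tag, so the tags are 3 samples of unnamed genotype and no genotype was compared with another. The knockout was in the tumour cells, and the labels give no genotype but C57BL/6 for the mice whose leukocytes were read.

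C1q, the recognition molecule of the classical complement pathway, is built from the products of C1qa, C1qb and C1qc, which in tissues are made mainly by macrophages. Folr2, a folate receptor, Cd163, the scavenger receptor for haemoglobin bound to haptoglobin, and Cbr2, a carbonyl reductase, mark macrophages of resident type in many mouse tissues, whereas macrophages that have differentiated from recently recruited monocytes often carry C1q without them. In tumours, macrophages with the interferon-induced chemokine Cxcl9 and macrophages with Spp1, which encodes osteopontin, have been described as separate states.

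Tags 8, 9 and 10 held 3336, 3486 and 3669 cells within the quality limits, and 21662592, 21753076 and 23683689 molecules over all their cells. Folr2-low macrophages had a median of 9331, 8092 and 8754 molecules per cell in tags 8, 9 and 10, Folr2-high macrophages of 12934, 11483 and 14283.5, monocytes of 7063.5, 6627 and 6503. No cell index occurred on more than 1 line of the table. Levels are given as counts per 1000000 molecules of a class in a tag (CPM), the 3 values of a class stand for tags 8, 9 and 10, and a ratio is the log2 ratio of these levels within a tag, given as the median of the 3 tags. A gene was called higher or lower when all 3 tags showed a ratio of 2-fold or more with one sign, and genes needed 20 molecules per tag, both classes summed, to be measured. No test was run, since the tags are no replicates of a condition, and the intervals given cover counting error only.

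Folr2-low macrophages were 203 cells in tag 8, 331 in tag 9 and 312 in tag 10. They made up 6.09%, 9.5% and 8.50% of the kept cells in tags 8, 9 and 10, with exact Clopper-Pearson 95% intervals of 5.30 to 6.95%, 8.54 to 10.5% and 7.62 to 9.45%. The interval of tag 8 lay below those of tags 9 and 10, which overlapped. Among all C1q macrophages, Folr2-high cells included, they made up 52.9%, 73.9% and 58.4% in tags 8, 9 and 10, with intervals of 47.7 to 57.9%, 69.6 to 77.9% and 54.1 to 62.6%. The share in tag 9 was above those of tags 8 and 10, and the intervals of those 2 overlapped. Folr2-high cells were deeper, and among cells with at least 5000 molecules the share was 49.4%, 70.0% and 55.0%, again with tag 9 above the other tags.

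**Figure D1:**
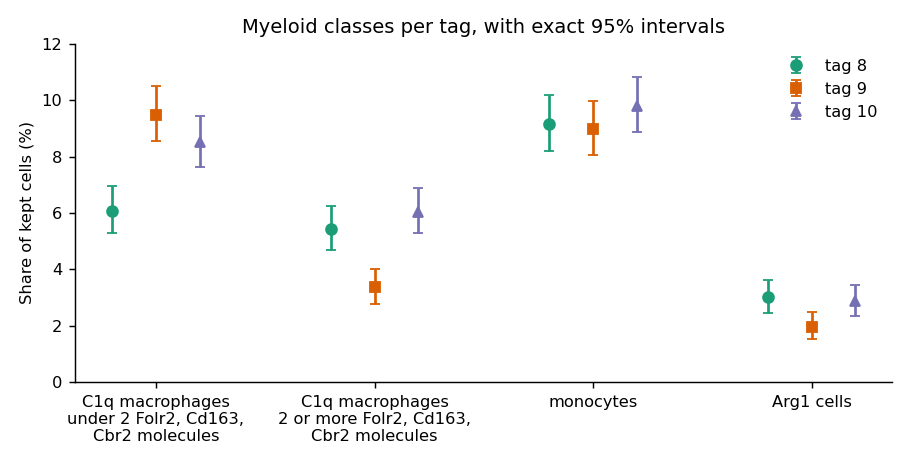
Share of the kept cells (%) in each of 4 myeloid classes, with 1 point per tag and exact 95% intervals. Folr2-low macrophages (left) lie at 6.09%, 9.5% and 8.50% in tags 8, 9 and 10, while monocytes lie between 8.98% and 9.81%; Arg1 cells are cells with at least 10 Arg1 molecules outside the other classes.

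The C1q sum of the 846 cells ran from 10 to 302 molecules with a median of 29. Of them 669 held no molecule of Folr2, Cd163 and Cbr2, and 177 held 1. Just inside the limit of 2 molecules, cells with 0 or 1 molecule had 386 and 606 CPM of Mrc1, the mannose receptor, while just outside, cells with 2 or 3 molecules had 641 and 704 CPM. H2-Aa, an MHC class II chain, had 5825 and 3993 CPM inside the limit, and 2779 and 3521 CPM outside it, so the cells with 1 molecule stood between the cells with none and those above the limit for both genes. At the C1q limit, 40 cells held exactly 10 molecules, against 52 with 9, and these had 148 and 205 CPM of Ms4a7, a membrane protein of macrophages. As background, 20 of 1937 cells with at least 3 T cell receptor molecules reached 10 C1q molecules (1.03%), at a median depth of 3927 molecules. Of cells with at least 3 molecules of the B cell gene Cd79a, 10 of 248 did (4.03%, exact 95% interval 1.95 to 7.29%), at a median depth of 2366 molecules, and of cells with at least 3 of the neutrophil gene S100a8, 10 of 647 did (1.55%), at 2212 molecules.

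Ms4a7, which the rule did not use, was present. Ms4a7 had a molecule in 65.0% of Folr2-low macrophages, against 86.0% of Folr2-high macrophages, 27.9% of monocytes and 6.13% of the other kept cells, whose median depth was 2715 molecules. After each cell was thinned to 2000 molecules, which left out 31 shallower cells of the 846, the share was 44.4% in Folr2-low macrophages, against 58.7%, 16.7% and 4.22%. The sum of 10 macrophage markers, 3 of them C1q genes, was 8119.6 to 12042 CPM over the tags in Folr2-low macrophages, against 10211 to 12985 CPM in Folr2-high macrophages, 2293 to 2851 CPM in monocytes and 594 to 847 CPM in the other kept cells. The gates set the C1q part of this sum, at 10 molecules or more in both macrophage classes and fewer than 10 in monocytes. The gap to monocytes is therefore partly set by the rule. The sum of 5 monocyte markers was 1635, 2497 and 2569.9 CPM in Folr2-low macrophages, against 1491, 1588 and 1191 CPM in Folr2-high macrophages and 5042, 6608 and 7895 CPM in monocytes. Ly6c2 and Chil3 of the monocyte gate are among these 5 markers. In addition, 39.1% of Folr2-low macrophages met the monocyte gate in all but its C1q limit, and 37.1% of Folr2-high macrophages did, so the classes form no sharp border in these genes. With the C1q limit at 5 or at 20 molecules, Folr2-low macrophages were 10.8% or 5.23% of the kept cells.

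Compared with monocytes, Folr2-low macrophages held more RNA of some genes for macrophage identity and lipid handling, and less of some genes of circulating monocytes. Of 8463 genes with enough molecules, 83 were called higher (0.981%) and 57 lower (0.674%). Among 275 genes in 21 lists of macrophage functions, 259 were measured in this comparison, with 18 called higher and 7 lower, beside a median ratio of 0.05 over all genes. T cell markers moved with this contrast, with a sum of 20.4, 26.5 and 31.0 CPM in Folr2-low macrophages, against 175, 102 and 186 CPM in monocytes, and the rule limited T cell molecules in the macrophages but not in the monocytes.

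Of 15 macrophage identity genes 3 were called higher, and the median ratio of the list was 0.40. Ms4a7 had 534, 467 and 785 CPM in Folr2-low macrophages, against 222, 142 and 161 CPM in monocytes, a ratio of 1.72. Mertk, a receptor for the uptake of apoptotic cells, had 45.6, 37.0 and 61.7 CPM, against 15.5, 12.6 and 24.0 CPM in monocytes (1.55), and Apoe, a lipid carrier, had 2170.1, 1717 and 3685 CPM, against 875, 606 and 942 CPM (1.5). For each of the 3 genes every tag of the macrophages lay above every tag of the monocytes, and the calls held in all alternatives that could measure them. Adgre1, which encodes F4/80, was not called, with 332, 294 and 409 CPM against 218, 191 and 219 CPM in monocytes, nor was Csf1r, the receptor of macrophage colony-stimulating factor, with 553, 485 and 589 CPM against 525, 499.7 and 550.5 CPM.

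Lipid-associated macrophage genes had 5 of 17 called higher and a median ratio of 0.66. Trem2, a lipid receptor, had 192, 149 and 227 CPM in Folr2-low macrophages, against 91.5, 53.3 and 71.5 CPM in monocytes (1.48). Cd63, a tetraspanin of lysosomes, had 633, 503 and 607 CPM, against 252, 179.5 and 236 CPM in monocytes (1.36). The tags of the classes did not overlap for either gene, but the Trem2 call ended with C1q sums down to 5 molecules and among cells with no Folr2, Cd163 and Cbr2 molecule, where its lowest median ratio over the alternatives was 1.16. Nr1h3, the sterol-sensing nuclear receptor LXR alpha, had 29.1, 33.9 and 37.6 CPM, against 9.07, 11.7 and 14.4 CPM in monocytes (1.54), and Lipa, the lysosomal acid lipase, had 435, 267 and 357 CPM, against 208, 107 and 166 CPM (1.10). Fabp4, a fatty acid carrier, had 74.2, 17.0 and 23.1 CPM, against 13.4, 7.48 and 4.39 CPM (2.40), with tag 8 of the macrophages well above their other tags. The Nr1h3 call ended in 2 of 19 alternatives, the Fabp4 call in 2 of 18 and the Lipa call in 5 of 19. Cd9, Ctsd and Lgals3 of the same list were not called.

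Of 14 measured resident-type macrophage genes, 3 were called higher than in monocytes although the cells were chosen for little RNA of 3 such genes, and the list's median ratio was 0.74. Igf1, a growth factor, had 39.3, 36.0 and 86.5 CPM in Folr2-low macrophages, against 7.34, 15.4 and 7.19 CPM in monocytes (2.42). Gas6, a bridge between dying cells and the receptors Axl and Mertk, had 23.3, 10.9 and 20.1 CPM, against 9.07, 1.87 and 5.99 CPM (1.75), and Blnk, a signalling adaptor, had 43.7, 33.2 and 51.8 CPM, against 16.4, 10.8 and 12.8 CPM (1.63). No tag of the monocytes reached the lowest macrophage tag for these 3 genes, and the Gas6 call ended without the cells holding 1 Folr2, Cd163 or Cbr2 molecule. Slc40a1, the iron exporter ferroportin, had 28.1, 9.84 and 16.5 CPM, against 0.864, 1.4 and 6.79 CPM in monocytes. Its monocyte levels rested on 2, 3 and 17 molecules in tags 8, 9 and 10, too few for a firm ratio, and its call ended in 2 of 16 alternatives. Itgax, the integrin chain CD11c, had 169.8, 159 and 244 CPM, against 68.2, 72.5 and 93.8 CPM (1.32), and Timp2, an inhibitor of matrix proteases, had 115, 89.6 and 145 CPM, against 36.7, 30.9 and 50.3 CPM (1.54).

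Monocyte genes had 7 of 19 called lower and a median ratio of -1.14. Plac8, a small protein of monocytes, had 511, 989 and 869.6 CPM in Folr2-low macrophages, against 1879, 2857 and 3004 CPM in monocytes (-1.79). Hp, which encodes haptoglobin, had 17.5, 11.2 and 14.9 CPM, against 124, 138 and 118 CPM (-2.99). Ace, a peptidase of non-classical monocytes, had 2.43, 4.41 and 2.31 CPM, against 20.3, 25.7 and 25.5 CPM (-3.06). For these 3 genes every macrophage tag lay below every monocyte tag. Ifitm6 (-3.16), Vcan (-1.96) and Mgst1 (-1.63) were lower too. Ccr2, the receptor that brings monocytes into tissue, was not called, with 574, 526 and 436 CPM in Folr2-low macrophages and 903, 675 and 760.5 CPM in monocytes.

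None of 11 MHC class II genes and none of 20 cytokine and chemokine genes was called between Folr2-low macrophages and monocytes. H2-Ab1, an MHC class II chain, had 4429.9, 5995 and 6484 CPM, against 2384, 4249 and 3719 CPM in monocytes, a median ratio of 0.80 that stayed under 2-fold in all 3 tags. Of 14 interferon gamma response genes only Nos2, the inducible nitric oxide synthase, was called higher, at 21.3, 95.7 and 41.3 CPM against 10.4, 18.7 and 13.2 CPM (1.65), and 32 of its 44 macrophage molecules in tag 8 came from 1 cell. That call ended in 5 of 17 alternatives, among them the one without the cell that held most molecules in each class and tag. Adm, a peptide hormone induced by low oxygen (1.46), and Ccnb2, a cyclin of mitosis (1.31), were higher on at most 33 macrophage molecules in any tag, and each call ended in 2 alternatives. Axl (ratio 1.02), at the edge of the 2-fold limit, lost its call in 8 of 19 alternatives, and was the only called gene of 8 for efferocytosis, the uptake of dead cells, and scavenger receptors, whose median ratio was -0.18.

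Of the called genes that reached 100 molecules, the 10 with the largest ratios above monocytes were Retnla, Cadm1, Mgl2, Arhgap19, Cd72, Slc40a1, Zmynd15, Olfml3, Igf1 and Slamf9. Cd72, a C-type lectin known from B cells, had 107, 161 and 307 CPM in Folr2-low macrophages, against 29.4, 21.0 and 38.7 CPM in monocytes (2.94), while the B cell marker sum was 61.6, 47.2 and 59.4 CPM against 58.3, 36.5 and 66.3 CPM. Cadm1, an adhesion molecule, had 57.7, 58.7 and 105 CPM, against 3.89, 7.95 and 12 CPM (3.14), and Slamf9, an orphan SLAM family receptor, had 78.6, 111 and 168 CPM, against 14.7, 33.7 and 30.7 CPM (2.42). The 3 genes did not overlap between the classes in any tag. Mgl2, a lectin of macrophages and dendritic cells, had 128, 103 and 98.7 CPM, against 12.1, 12.2 and 38.7 CPM (3.08), and its call ended without the richest cell of each class and tag and without cells holding markers of other cells. The first of the 10, Retnla, a secreted protein of alternatively activated macrophages, rested on few cells, since 140 of its 251 molecules in tag 8 and 96 of 102 in tag 10 came from 1 cell each. The 10 lowest ratios belonged to S100a8, Cd177, Il2rb, Lrg1, Hp, Ace, Icos, Ifitm6, Rgs16 and Cd3g, of which Il2rb, Icos and Cd3g are lymphocyte genes. Neutrophil markers summed to 265, 98.4 and 113 CPM in Folr2-low macrophages and 430.1, 184 and 304 CPM in monocytes, and their part in the S100a8 and Cd177 ratios was not tested. With monocytes limited to 1 T cell molecule, which was an alternative added after seeing the data, 99 genes were called higher and 38 lower, and Il2rb and Icos lost their calls.

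**Figure D2:**
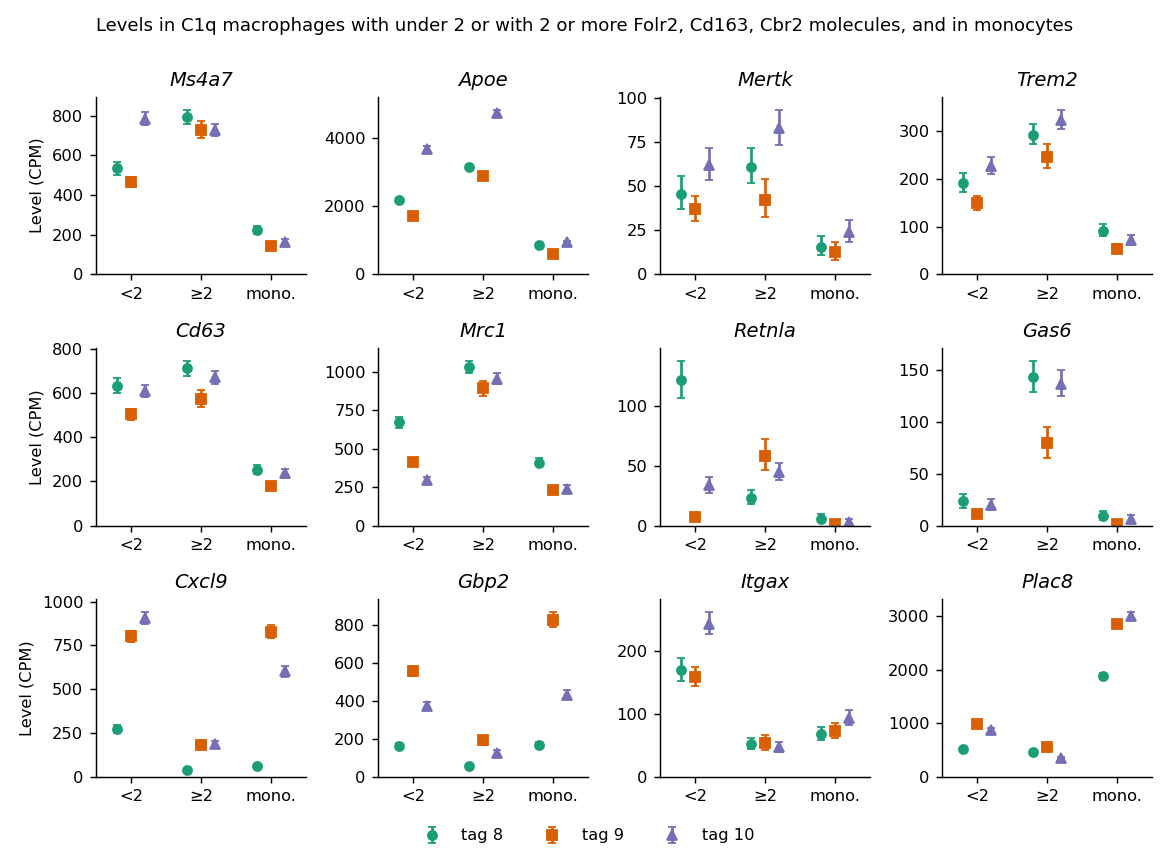
Levels (CPM) of 12 genes in Folr2-low (<2) and Folr2-high (≥2) macrophages and in monocytes (mono.), with 1 point per tag and exact Poisson 95% intervals. Ms4a7, Apoe, Mertk, Trem2 and Cd63 lie above monocytes in both macrophage classes, and Gas6 is highest in Folr2-high macrophages. Cxcl9, Gbp2 and Itgax lie higher in Folr2-low than in Folr2-high macrophages in each tag, with Itgax at 169.8, 159 and 244 CPM against 52.4, 53.0 and 46.9 CPM. Gbp2 lies higher still in monocytes in each tag.

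Against Folr2-high macrophages, the Folr2-low cells carried less RNA of 9 other resident-type genes and more of 3 genes of the interferon gamma response, Cxcl9 among them. Here 33 of 8552 genes were called higher (0.386%) and 47 lower (0.55%), and among 261 list genes 8 were higher and 12 lower, beside a median ratio of -0.02 over all genes. Both contrasts share the Folr2-low cells, so their ratios are not independent of each other.

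Resident-type genes had 9 of 16 called lower, with a median ratio of -1.37. The 3 genes of the rule are not in the list, but the 2 classes were split by these 3 resident-type genes in the same cells. The ratios between the classes are therefore a description. Gas6 had 23.3, 10.9 and 20.1 CPM in Folr2-low macrophages, against 144, 79.5 and 137 CPM in Folr2-high macrophages (-2.77). Pf4, a platelet-type chemokine also made by macrophages, had 681, 517 and 347 CPM, against 1882, 1685 and 2656 CPM (-1.71), and Ltc4s, which makes leukotriene C4, had 14.6, 3.39 and 13.9 CPM, against 108, 24.5 and 189 CPM (-2.90). In each tag Folr2-low cells were below Folr2-high cells by more than 2-fold, and over all tags the levels of these 3 genes did not overlap. Fcgrt, the neonatal Fc receptor, had 52.9, 42.7 and 53.8 CPM, against 199, 123 and 210.1 CPM (-1.91), and Fcna, a ficolin that starts the lectin pathway of complement, had 1.46, 3.05 and 0.99 CPM, against 33.0, 11.6 and 27.5 CPM, on only 15 molecules in all Folr2-low cells. Igf1 (-1.61), Selenop (-1.41), Wwp1 (-1.52) and Stab1 (-1.33) were lower as well. Mrc1 missed the call because tag 8 was under 2-fold, with 673, 413 and 297 CPM against 1031, 894 and 957 CPM in Folr2-high macrophages. Lyve1, a hyaluronan receptor of resident macrophages, had 4, 1 and 1 molecules in the Folr2-low cells of tags 8, 9 and 10, and was too sparse in tag 9 to be measured.

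Outside that list, Slc40a1 was lower at 28.1, 9.84 and 16.5 CPM, against 95.1, 21.8 and 59.9 CPM in Folr2-high macrophages (-1.76), and Timp2 at 115, 89.6 and 145 CPM, against 331, 212 and 384 CPM (-1.40). Both genes thus had their middle level in Folr2-low macrophages, above monocytes and below Folr2-high macrophages, in each tag. Marco, a scavenger receptor, was lower (-2.23) on 14 molecules in Folr2-low cells and 64 in Folr2-high cells, and lost the call without the richest cell of each class and tag.

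Interferon gamma response genes had 3 of 14 called higher and a median ratio of 0.95. Cxcl9, which attracts activated T cells, had 274, 802 and 906 CPM in Folr2-low macrophages, against 39.6, 179 and 186 CPM in Folr2-high macrophages (2.29). Gbp2, a guanylate-binding protein, had 161, 556 and 374 CPM, against 57.1, 191 and 126 CPM (1.54), and Nos2 had 21.3, 95.7 and 41.3 CPM, against 10.1, 44.2 and 16.3 CPM (1.11). Within each tag the Folr2-low cells were higher for all 3, while over the tags Gbp2 and Nos2 overlapped between the classes, with tag 8 lowest in both. The Cxcl9 call held in every alternative that could measure it, the Gbp2 call ended without cells holding markers of other cells, and the Nos2 call ended in 3 alternatives. Cd274, which encodes PD-L1, was not called, with 236, 513 and 328 CPM against 122, 290.2 and 166 CPM.

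MHC class II presentation had a median ratio of 1.13 over 11 genes, with 2 called. H2-DMb1, which helps to load peptides, had 168, 236 and 216 CPM, against 55.5, 103 and 78.0 CPM in Folr2-high macrophages (1.47), and Ciita, the master regulator of the class II genes, had 25.7, 43.1 and 50.8 CPM, against 9.32, 19.7 and 24.8 CPM (1.13). H2-Aa had 4385, 5569 and 5941 CPM, against 1882, 3135 and 2287 CPM (1.22), with the highest Folr2-high tag below the lowest Folr2-low tag, but tag 9 stayed under 2-fold. Without tag 9, 7 of the 11 genes of this list were called higher. Leaving out a tag asks for agreement in fewer tags, and it raised the calls over all genes as well, so this count describes tag 9 only. The sum of 8 dendritic cell markers was 180.4, 118 and 142 CPM in Folr2-low macrophages, against 80.0, 132 and 146 CPM in Folr2-high macrophages, with 1077, 876 and 803 CPM in the other kept cells, and its part in the class II ratios was not tested. Among these markers Clec9a, a receptor of cross-presenting dendritic cells, was itself called higher, at 8.25, 6.45 and 8.91 CPM against 2.33, 1.36 and 1.81 CPM, on few molecules.

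Itgax was higher at a ratio of 1.70, as were Ass1, which remakes arginine from citrulline, at 58.2, 119 and 106 CPM against 23.3, 38.7 and 25.7 CPM in Folr2-high macrophages (1.62), and the T cell chemokine Ccl5, at 288, 714 and 552 CPM against 143, 271 and 175 CPM (1.40). The Itgax and Ass1 calls held in every alternative that could measure them, and the Ccl5 call ended in 6 of 18, while T cell markers summed to 20.4, 26.5 and 31.0 CPM in Folr2-low macrophages, against 26.8, 25.8 and 29.6 CPM in Folr2-high macrophages. Neither Arg1, which breaks arginine down, nor Spp1 was called, with 1172, 924 and 557 CPM of Arg1 against 1489, 1259 and 2295 CPM and 1039, 698 and 1479 CPM of Spp1 against 952, 723 and 1311 CPM. None of 17 lipid-associated, 15 macrophage identity, 14 lysosomal or 16 type I interferon response genes was called in this contrast. The 10 largest ratios belonged to Retnlg, Ly6i, Dnase1l3, Dcstamp, Cxcl9, Slc36a3os, Gbp8, Gpr171, Alpk2 and Itgax. Ly6i, an interferon-induced Ly6 family protein, had 43.7, 105 and 111 CPM, against 5.82, 40.1 and 18.7 CPM (2.57), Dnase1l3, a secreted nuclease, had 18.4, 38.7 and 69.7 CPM, against 3.11, 12.2 and 11.5 CPM (2.57), and Dcstamp, a protein of cell fusion, had 25.7, 13.6 and 9.24 CPM, against 1.16, 2.72 and 2.72 CPM (2.32), with 3, 4 and 9 molecules of it in the Folr2-high cells. Retnlg is a neutrophil gene, and the neutrophil marker sum that includes it was 265, 98.4 and 113 CPM in Folr2-low macrophages, against 106, 65.3 and 110.3 CPM in Folr2-high macrophages, whose part in these ratios was not tested. The 10 lowest were Ednrb, Cela1, Padi4, Hbb-bt, Akr1b8, Gas6, Etv1, Ltc4s, Npl and Fcna. Ednrb, the endothelin B receptor, had 77.1, 30.2 and 20.5 CPM, against 198, 136 and 391 CPM (-2.17), and Npl, a lyase of sialic acid, had 6.31, 4.07 and 3.3 CPM, against 55.5, 23.8 and 40.2 CPM (-3.14). Hbb-bt, a haemoglobin gene of red cells, had 2.91, 12.2 and 3.3 CPM against 8.54, 298 and 20.3 CPM, and its ratio turned to 0.32 without the richest cell of each class and tag.

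**Figure D3:**
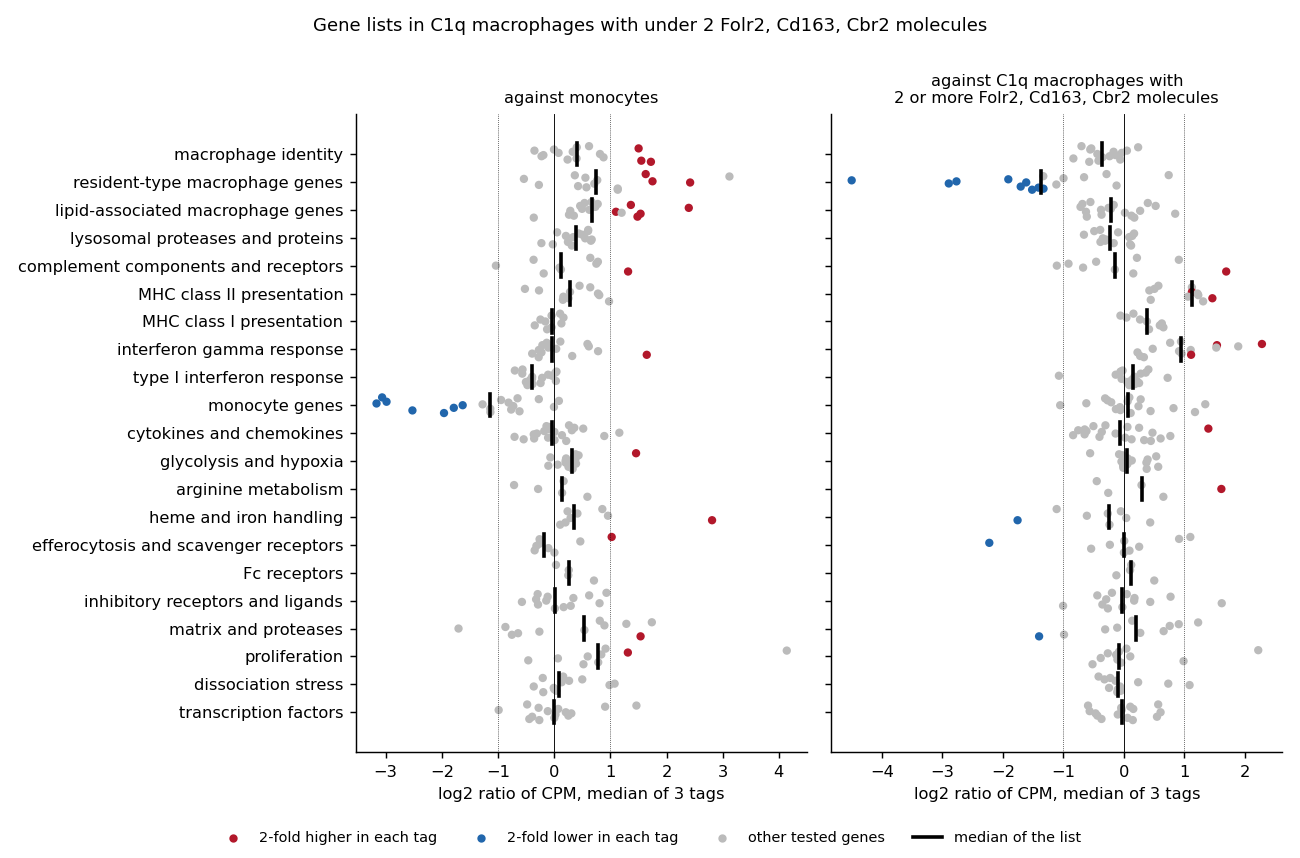
Median log2 ratio of CPM over the 3 tags for each measured list gene, in Folr2-low macrophages against monocytes (left) and against Folr2-high macrophages (right), with list medians as bars. Monocyte genes lie lowest on the left at a median of -1.14, and on the right resident-type genes lie lowest at -1.37 and MHC class II genes highest at 1.13.

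Of the 846 Folr2-low macrophages, 225 held at least 2 molecules of Cxcl9 (26.6%) and 312 at least 2 of Spp1 (36.9%). Among them 129 held at least 2 molecules of Cxcl9 and none of Spp1, and are called Cxcl9 macrophages here, while 236 held at least 2 molecules of Spp1 and none of Cxcl9, and are called Spp1 macrophages. These states were chosen by 2 genes of the same cells, so the ratios between them are a description. A further 63 cells held at least 2 molecules of both (7.45%), 46 held 1 of one and at least 2 of the other, and 372 held fewer than 2 of each (44.0%). Cxcl9 macrophages were 11, 66 and 52 cells in tags 8, 9 and 10, and Spp1 macrophages 87, 75 and 74. Cxcl9 macrophages had a median of 6473, 8105 and 8721.5 molecules per cell, against 10105, 9972 and 10220.5 in Spp1 macrophages. Limits on molecule counts depend on depth, so the 2 states were also not matched in depth. In cells thinned to 2000 molecules, Cxcl9 was seen in 205 of 815 cells and Spp1 in 279, and 57 cells held both. Spp1 was thus seen in 27.8% of the cells with Cxcl9, against 34.2% of all thinned cells, and in tag 10 alone in 36.0% of the cells with Cxcl9, against 36.1% of all, so the 2 genes were not kept apart in that tag. The tag 8 values of Cxcl9 macrophages therefore rest on 11 cells with 114734 molecules, and these had a neutrophil marker sum of 1456 CPM, against 105 and 92.9 CPM in tags 9 and 10.

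Between the 2 states 54 of 5313 measured genes were called higher in Cxcl9 macrophages (1.02%) and 65 lower (1.22%), beside a median ratio of 0.09 over all genes. With TMM factors, a scaling that moved this median by -0.13, 39 were higher and 90 lower. Of 226 list genes 17 were higher and 26 lower, with Cxcl9 and Spp1 left out because they define the states.

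Interferon gamma response genes had 8 of 13 called higher and a median ratio of 1.57, and 7 of 13 under TMM factors. Iigp1, an interferon-inducible GTPase, had 183, 462 and 255 CPM in Cxcl9 macrophages, against 6.25, 39.2 and 22.8 CPM in Spp1 macrophages (3.56). Gbp2 had 593, 1153 and 826 CPM, against 63.5, 231 and 88.6 CPM (3.22), and Gbp4, of the same family, had 113, 309 and 117 CPM, against 17.7, 49.6 and 19.0 CPM (2.64). The tags of the 2 states did not overlap for these 3 genes, and their calls held in every alternative that could measure them. Gbp5 (2.23), Igtp (2.01), Irgm1 (1.61), Gbp7 (1.57) and Irf1 (1.30) were higher too, and the Irf1 call ended in 5 of 18 alternatives. Of MHC class I presentation 3 of 9 genes were higher, namely the peptide transporter gene Tap1, with 227, 226 and 162 CPM against 48.9, 79.6 and 68.4 CPM (1.51), and the immunoproteasome genes Psmb9 (1.58) and Psmb8 (1.26). Of 9 genes in the MHC class II presentation list only Cd40, a receptor that T cells engage and no class II chain, was higher. It had 166, 289.8 and 182 CPM in Cxcl9 macrophages and a ratio of 1.33 over Spp1 macrophages. Itgal, the integrin chain LFA-1 alpha, had 139, 98.7 and 132 CPM in Cxcl9 macrophages, against 19.8, 31.3 and 27.8 CPM in Spp1 macrophages (2.25). Irf8, a factor of monocyte and dendritic cell fate, had 662, 506 and 328 CPM, against 111, 136 and 156 CPM (1.9), and lost its call in 7 of 18 alternatives. Dendritic cell markers summed to 235, 209 and 98.8 CPM in Cxcl9 macrophages, against 30.2, 32.6 and 94.9 CPM in Spp1 macrophages, and their part in these ratios was not tested.

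Spp1 macrophages carried more RNA of arginase and of some chemokine, lipid and matrix genes. Arg1 had 8.72, 90.7 and 285 CPM in Cxcl9 macrophages, where tag 8 rests on 1 molecule, against 2129.7, 1999.7 and 1658 CPM in Spp1 macrophages. At least 2 Arg1 molecules were held by 10 of 129 Cxcl9 macrophages (7.75%, interval 3.78 to 13.8%), against 125 of 236 Spp1 macrophages (53.0%, 46.4 to 59.5%). In single tags the counts were 0 of 11, 5 of 66 and 5 of 52 cells in Cxcl9 macrophages, against 46 of 87, 44 of 75 and 35 of 74 cells in Spp1 macrophages. Ass1 went the other way, with 122, 209 and 142 CPM in Cxcl9 macrophages, against 44.8, 80.9 and 60.8 CPM in Spp1 macrophages (1.37).

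Cytokine and chemokine genes had 6 of 19 called lower in Cxcl9 macrophages, with a median ratio of -1.01, and 8 of 19 under TMM factors. Cxcl1, which attracts neutrophils, had 488, 1528 and 1492 CPM in Cxcl9 macrophages, against 5097, 6799 and 6125 CPM in Spp1 macrophages (-2.15). Ccl9 had 409.6, 339 and 381 CPM, against 2487, 1903 and 1367 CPM (-2.49), and Ccl6, a chemokine of the same gene cluster, had 445, 691 and 551 CPM, against 4127, 3074 and 2077 CPM (-2.15). No tag of Cxcl9 macrophages reached the lowest tag of Spp1 macrophages for these 3 chemokines. Cxcl3 (-3.06), Il1a (-1.62) and Ccl7 (-1.16) were lower as well, whereas Tnf was not called, with 994, 1476 and 1970.5 CPM against 1492, 2124 and 2040.5 CPM.

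Of 16 lipid-associated genes 4 were lower in Cxcl9 macrophages, and the list's median ratio was -0.91. Cd36, a fatty acid receptor, had 52.3, 70.1 and 73.1 CPM in Cxcl9 macrophages, against 768, 770.1 and 827 CPM in Spp1 macrophages (-3.50), and Gpnmb, a lysosomal glycoprotein, had 61.0, 46.2 and 105 CPM, against 276, 411 and 586 CPM (-2.48). Fabp4 was held by 2 molecules in all Cxcl9 macrophages and by 176 in Spp1 macrophages, and Abca1, a cholesterol exporter, was lower at -1.35. Fn1, which encodes fibronectin, had 34.9, 79.6 and 115 CPM, against 1197, 1094 and 1319 CPM (-3.78), and Mmp12, a macrophage elastase, had 17.4, 15.9 and 83.0 CPM, against 223, 448 and 315 CPM (-3.68). F13a1, a clotting factor chain, had 26.1, 35.0 and 77.1 CPM, against 544, 493 and 495 CPM (-3.82), and Hmox1, the haem-degrading oxygenase, had 253, 269 and 512 CPM, against 2395, 1927 and 1765 CPM (-2.84). Every tag of Cxcl9 macrophages lay below every tag of Spp1 macrophages for Cd36, Gpnmb, Fn1, Mmp12, F13a1 and Hmox1, although tag 8 of Cxcl9 macrophages held only 2 molecules of Mmp12 and 3 of F13a1. Of 13 resident-type genes 4 were lower in Cxcl9 macrophages, F13a1 and 3 more, with a list median of -0.59. Pf4 had 131, 30.2 and 128 CPM in Cxcl9 macrophages, against 873, 1044 and 885 CPM in Spp1 macrophages (-2.78), Mrc1 had 296, 139 and 148 CPM, against 708, 603 and 449 CPM (-1.60), and Ccl24, an eosinophil chemokine, had 0, 111 and 3.95 CPM, against 121, 268 and 74.7 CPM. Itgam, the integrin chain CD11b, was lower as well, with 471, 379 and 439 CPM against 1076, 805 and 927 CPM (-1.09), a call that ended in 5 of 18 alternatives. The heat shock genes Hspa1b (-3.00) and Hspa1a (-2.19), both of the dissociation stress list, were lower in Cxcl9 macrophages. Hspa1b had 34.9, 103 and 261 CPM in Cxcl9 macrophages, against 455, 830.2 and 1046 CPM in Spp1 macrophages, and the Hspa1a call ended in 3 of 18 alternatives. The other 10 of the 12 dissociation stress genes were not called, and the list median was 0.20, beside 0.09 over all genes. The part of these genes in the other ratios was not tested.

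**Figure D4:**
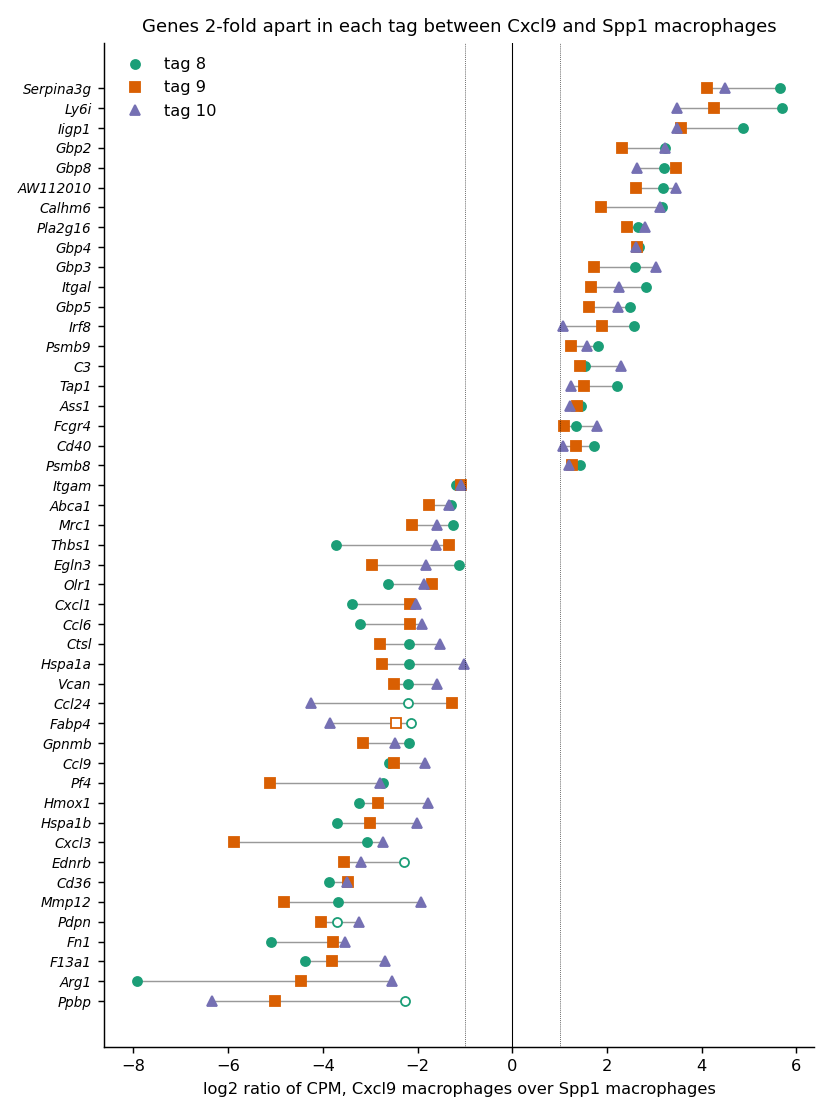
Log2 ratio of CPM in Cxcl9 macrophages over Spp1 macrophages, with 1 point per tag for each named gene called 2-fold in every tag; an open point marks a tag with 0 molecules in Cxcl9 macrophages, set to 3 counts. Serpina3g has the largest median ratio, 4.49, and Ppbp and Arg1 the lowest 2, with tag 8 of Cxcl9 macrophages resting on 11 cells.

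Over all genes the 10 largest ratios in Cxcl9 macrophages belonged to Serpina3g, Ly6i, Iigp1, Gbp2, Gbp8, AW112010, Calhm6, Pla2g16, Gbp4 and Gbp3. Serpina3g, a serine protease inhibitor, had 157, 248 and 227 CPM, against 3.12, 14.4 and 10.1 CPM in Spp1 macrophages (4.49), and AW112010, an interferon-induced transcript, had 445, 532 and 625 CPM, against 48.9, 87.5 and 57.0 CPM (3.18). Ly6i had 540.4, 350.3 and 308 CPM, against 10.4, 18.3 and 27.8 CPM (4.26), Calhm6, an ion channel gene, had 148, 249.96 and 243 CPM, against 16.7, 67.9 and 27.8 CPM (3.13), and Gbp3 had 157, 185 and 166 CPM, against 26.0, 56.1 and 20.3 CPM (2.59). In none of these 5 genes did a tag of Spp1 macrophages, where tag 8 held 3 Serpina3g molecules, reach the lowest tag of Cxcl9 macrophages. The 10 lowest were Hspa1b, Cxcl3, Ednrb, Cd36, Mmp12, Pdpn, Fn1, F13a1, Arg1 and Ppbp. Pdpn, the glycoprotein podoplanin, had 0, 27.1 and 31.6 CPM, against 341, 444 and 297 CPM in Spp1 macrophages, and the platelet chemokine Ppbp had 0, 7.96 and 5.93 CPM, against 125, 256 and 481 CPM. Cxcl9 lies at chr5:92321347-92328079 on the minus strand and Spp1 at chr5:104435118-104441050 on the plus strand of GRCm38, both as protein-coding genes of GENCODE vM21.

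As 8 interferon gamma response genes were higher in Cxcl9 macrophages, the 250 bases before each gene's start were searched on both strands for the gamma-activated site TTCNNNGAA and for GAAA, any 2 bases and GAAA again, a core of the interferon-stimulated response element (ISRE). Among all 32851 mouse promoters of RefSeq (GRCm38.p6) the first occurred in 2306 (7.02%) and the second in 978 (2.98%). These shares count every promoter entry, whereas in the gene sets that follow each gene was counted by its first entry only. Of the 54 genes called higher in Cxcl9 macrophages 42 had a promoter entry, with the first motif in 12 (28.6%) and the second in 11 (26.2%). Of the 65 called lower 49 had an entry, with the first motif in 3 (6.12%) and the second in none, and among all 4226 measured genes with an entry the shares were 5.70% and 3.57%. Among the 10 leading genes higher in Cxcl9 macrophages, 5 had an entry and 4 of these held a motif, and the last 120 bases before their start are shown because they carry it, 5′ to 3′ on the gene's strand, with positions counted back from the start.

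Capitals mark the motif, or its reverse complement, in each stretch.
Gbp2: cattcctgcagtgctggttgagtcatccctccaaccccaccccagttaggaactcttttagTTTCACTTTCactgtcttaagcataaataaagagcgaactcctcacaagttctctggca
Gbp3: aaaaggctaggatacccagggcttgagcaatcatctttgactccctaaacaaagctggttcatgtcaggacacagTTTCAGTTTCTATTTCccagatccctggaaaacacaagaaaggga
Calhm6: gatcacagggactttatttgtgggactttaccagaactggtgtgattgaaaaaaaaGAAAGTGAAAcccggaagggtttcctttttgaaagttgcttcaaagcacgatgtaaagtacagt
Serpina3g: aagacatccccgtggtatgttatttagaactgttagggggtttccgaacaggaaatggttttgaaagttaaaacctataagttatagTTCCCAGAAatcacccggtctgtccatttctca

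The Gbp2 stretch is chr3:142620543-142620662 on the plus strand, with the motif beginning at -59. The Gbp3 stretch is chr3:142559924-142560043 on the plus strand, with overlapping motifs at -45 and -39, while another Gbp3 entry, chr3:142560106-142560355, held neither motif. The Calhm6 stretch is chr10:34127973-34128092 on the minus strand, with the motif at -64, and the Serpina3g stretch is chr12:104236027-104236146 on the plus strand, with the motif at -33. Gbp2, Gbp3 and Calhm6 hold the ISRE core, on the reverse strand in both Gbp genes, and Serpina3g holds TTCNNNGAA. AW112010 had an entry without either motif, the Cxcl9 entry held neither, and 1 of 2 Spp1 entries held the ISRE core at -157. None of the 8 leading genes lower in Cxcl9 macrophages that had an entry held either motif. A match is a string of letters in these windows, and no binding was measured.

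The tags differed in both the make-up and the levels of Folr2-low macrophages. At least 2 molecules of Cxcl9 were held by 9.85%, 30.8% and 33.0% of the cells in tags 8, 9 and 10, with intervals of 6.12 to 14.8%, 25.9 to 36.1% and 27.8 to 38.5%, and at least 2 of Spp1 by 46.8%, 32.0% and 35.6% (39.8 to 53.9%, 27.0 to 37.3% and 30.3 to 41.2%). Tag 8 stood below the other tags for Cxcl9, and its Spp1 interval overlapped that of tag 10 and not that of tag 9. After thinning to 2000 molecules, at least 1 molecule was held by 9.09%, 27.9% and 32.8% of the cells for Cxcl9 and by 39.4%, 29.2% and 36.1% for Spp1. At least 2 molecules of Mki67 and Top2a, genes of dividing cells, were held by 17.7%, 14.5% and 17.0%, with overlapping intervals.

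Levels were called different between tags when the highest tag was at least 2-fold the lowest, their exact Poisson 95% intervals did not overlap and the gene had at least 60 molecules over the tags. That was so for 368 of 7850 genes (4.69%), and for 64 of 260 list genes. Tag 8 was the lowest tag for 30 of the 64 and the highest for 22, tag 9 the lowest for 20 and the highest for 23, and tag 10 the lowest for 14 and the highest for 19. Over all 368 genes the order was another, with tag 8 the lowest for 179 and the highest for 116, tag 9 the lowest for 126 and the highest for 84, and tag 10 the lowest for 63 and the highest for 168.

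Of 14 interferon gamma response genes 12 were called, all 12 with tag 8 lowest, and 10 of them with tag 9 highest. Iigp1 had 27.2, 175 and 148 CPM in tags 8, 9 and 10, a 6.44-fold spread. Gbp2 had 161, 556 and 374 CPM (3.45-fold), Irgm1, a GTPase of the same response, 64.0, 236 and 177 CPM (3.69-fold) and Irf1, a transcription factor, 123, 345 and 258 CPM (2.8-fold). Cxcl9 had 274, 802 and 906 CPM (3.31-fold) with tag 10 highest, and Cd274 had 236, 513 and 328 CPM (2.17-fold). Nos2 had 21.3, 95.7 and 41.3 CPM (4.48-fold). Cxcl10, the related chemokine, was not called, with 1043, 1569 and 1182 CPM. The other classes had their lowest Gbp2 level in tag 8 too, with 57.1, 191 and 126 CPM in Folr2-high macrophages and 167, 829 and 434 CPM in monocytes, and for Iigp1 the levels were 21.7, 43.5 and 78.6 CPM and 21.6, 102 and 79.4 CPM. Of 16 type I interferon genes 6 were called, again with tag 8 lowest for all 6, among them Isg15, an antiviral ubiquitin-like protein, with 292, 635 and 525 CPM (2.18-fold) and Ifi44 with 6.31, 28.8 and 46.2 CPM (7.33-fold). Pdcd1lg2, which encodes PD-L2, had 9.22, 50.2 and 18.2 CPM (5.45-fold), Slc7a2, an arginine transporter, 14.1, 81.4 and 23.4 CPM (5.79-fold) and Ccl5 288, 714 and 552 CPM (2.48-fold), all with tag 9 highest and tag 8 lowest.

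Tag 8 was highest for 4 of the 6 resident-type genes and for 4 of the 5 cytokine and chemokine genes that were called. Mrc1 had 673, 413 and 297 CPM in tags 8, 9 and 10 (2.26-fold), and Fabp4 had 74.2, 17.0 and 23.1 CPM (4.38-fold). Ccl6 had 2988, 1686 and 1042 CPM (2.87-fold), Ccl9 1954, 1113 and 802 CPM (2.44-fold) and Arg1 1172, 924 and 557 CPM (2.11-fold), each in the order of tag 8, tag 9 and tag 10 from high to low. The Arg1 call ended with C1q sums down to 5 molecules and without cells holding markers of other cells. Tag 10 was highest for Apoe, with 2170.1, 1717 and 3685 CPM (2.15-fold), Cx3cr1, the fractalkine receptor, with 63.1, 33.9 and 104 CPM (3.06-fold), and Spp1, with 1039, 698 and 1479 CPM (2.12-fold), a call that ended in 4 of 13 alternatives. Of 11 proliferation genes 7 were called, 6 of them with tag 9 lowest, such as Ube2c, a ubiquitin-conjugating enzyme of mitosis, with 16.0, 3.39 and 11.2 CPM (4.72-fold) and Cdk1, the mitotic kinase, with 11.6, 3.73 and 11.2 CPM (3.12-fold). Single cells held much of this RNA, with 19 of 34 Ube2c molecules in tag 10, 12 of 24 Cdk1 molecules in tag 8 and 55 of 89 Top2a molecules in tag 8 from 1 cell each, and the calls of Cdk1, Top2a and Ccnb1 ended without the richest cell of each tag. Of 11 matrix genes 5 were called, among them the protease genes Mmp13, with 113, 175 and 54.5 CPM (3.21-fold), and Mmp12, with 287, 179 and 133 CPM (2.16-fold), a call that ended in 3 of 13 alternatives. The inhibitory receptor gene Cd200r1 had 35.9, 14.2 and 11.6 CPM (3.11-fold), with tag 8 highest, and Ccl8, a monocyte chemokine, had 135, 359.9 and 292 CPM (2.66-fold), with tag 8 lowest. Clec4e and Clec4d, lectins that sense microbes and dead cells, had 923, 1163 and 577 CPM (2.01-fold) and 642, 454 and 296 CPM (2.17-fold), lowest in tag 10 for both. None of 9 MHC class I, 16 glycolysis and hypoxia or 12 dissociation stress genes was called between tags. Of 11 genes in the MHC class II presentation list only the receptor gene Cd40 was, with 92.6, 225 and 145 CPM (2.42-fold).

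Single cells decided some of the largest spreads. Il12b, a chain of the cytokine IL-12, had 119, 7.8 and 24.8 CPM in tags 8, 9 and 10, but 231 of its 245 molecules in tag 8 came from 1 cell. The mast cell genes Cma1, Mcpt4, Cpa3, Fcer1a and Tpsb2 led the whole table with tag 10 highest, and nearly all of their molecules, such as 545 of 546 for Cpa3, came from 1 cell of that tag. Gbp2b, with 1.94, 33.6 and 37.0 CPM (19.1-fold), held its call in every alternative that could measure it. Neutrophil markers summed to 265, 98.4 and 113 CPM in the Folr2-low macrophages of tags 8, 9 and 10, and their part in these differences was not tested.

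**Figure D5:**
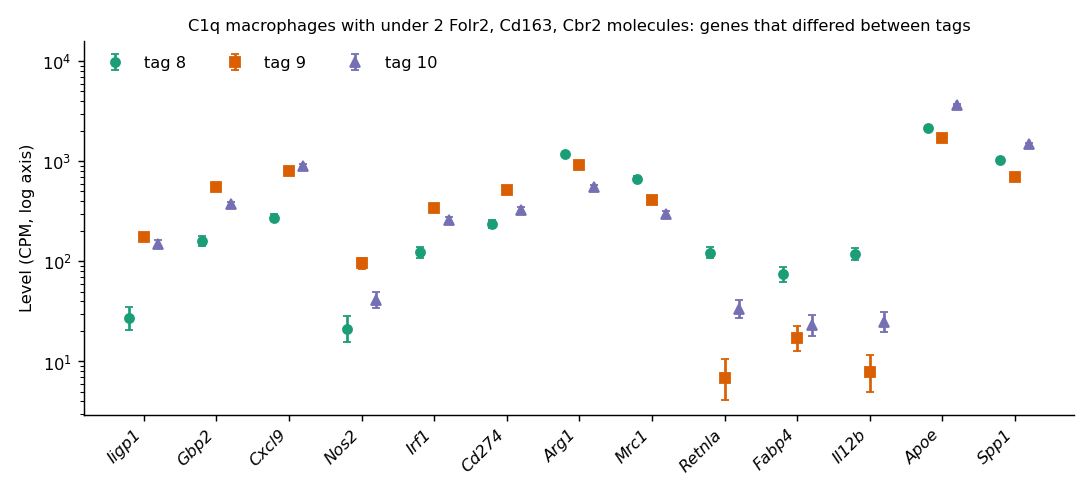
Levels (CPM, log axis) of 13 genes in Folr2-low macrophages, with 1 point per tag and exact Poisson 95% intervals. Tag 8 lies lowest for Iigp1, Gbp2, Cxcl9, Nos2, Irf1 and Cd274, and highest for Arg1, Mrc1, Retnla, Fabp4 and Il12b; Apoe and Spp1 are highest in tag 10, at 3685 and 1479 CPM.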

How the data were processed

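Per the file headers, the deposited values are whole-number counts of molecules for each cell and gene after recursive substitution error correction, which the authors obtained from version 1.9.1 of the BD Rhapsody WTA pipeline with the GENCODE vM19 annotation of GRCm38. In place of that build, GRCm39 stands in the submitters' processing notes. The aligner and its settings are not given in the sources used here. The table holds 24510 genes and 14899 cells, and its sample name column repeats the tag call. Cells called multiplets by tag were left out, and no doublet caller was run, so pairs of cells with the same tag remain.

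Counts were summed by class and tag without further normalization but the class total. Genes of the gates were left out of the calls, and a count of 0 was set to 3 counts. The members and the 21 gene lists were chosen with earlier results of these data known. Named genes are up to 4 called genes per list, other list members that show what was not called, the 10 highest and 10 lowest called genes with at least 100 molecules, the list genes that differed between tags and the 10 genes with the largest spread between tags; called list genes beyond the first 4 were named after their values were seen, and some list genes are not reported here. The 2-fold call between classes was tried on simulated class sums with counting error only, without the spread between single cells. Neither the gates nor the call between tags was simulated. Alternatives changed the limits of the rule, the quality limits, depth, scaling (TMM in edgeR 4.0.16, R 4.3.3), the minimum count and the averaging, or left out each tag. Scripts ran in Python 3.11.15 with pandas 2.3.3, scipy 1.17.1, numpy 2.4.6 and, for the plots, matplotlib 3.10.9.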

Additional observations from a re-analysis of the deposited data

Results flagged for a closer look

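Outside the comparisons, 116 of 1271 cells with a multiplet tag call that passed the quality limits met the rule for Folr2-low macrophages (9.13%, interval 7.60 to 10.8%), with a median of 10795 molecules against 5846 in all such cells. None of 175 cells with an undetermined tag did. With the count of 0 set to 3 counts the share would be 1.71%, a figure that is not the limit of an exact interval.

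A few list genes went at least 2-fold in opposite directions in 2 tags, a difference that was not tested. Ccnb1, a cyclin of mitosis, had log2 ratios of -2.03, 4.77 and 4.14 against monocytes in tags 8, 9 and 10, and of -1.31, 2.23 and 4.54 against Folr2-high macrophages, with 52 of its 75 molecules in tag 9 and 51 of 64 in tag 10 from 1 cell each. Il12b had ratios of 4.45 in tag 8 and 0.77 in tag 10 against Folr2-high macrophages, while tag 9 had 7.8 CPM in Folr2-low macrophages, against 15.6 CPM in Folr2-high macrophages. Between Cxcl9 and Spp1 macrophages, tag 9 went down and tag 8 up for Cx3cr1 (-2.20 and 1.72), Stab1 (-2.49 and 1.02) and Wwp1 (-1.67 and 1.18), with 20, 43 and 16 molecules in the 11 Cxcl9 macrophages of tag 8. Opposite directions of this size occurred in 22 of 8463, 36 of 8552 and 73 of 5313 genes of the 3 contrasts.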

How the results depend on the processing

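Of the leading genes and called list genes, 22 of 43 held their call against monocytes in every alternative that could measure them, 23 of 37 against Folr2-high macrophages, 27 of 53 between Cxcl9 and Spp1 macrophages and 35 of 72 between tags. Between tags a call counted as held when the gene was called and its first highest tag stayed 2-fold above its first lowest. Another tag could become the highest, as for Il12b without the richest cell. Monocytes limited in T cell molecules, leaving out the richest cell for every contrast and leaving out other-cell markers between tags were chosen after seeing the data. Without cells holding 2 or more molecules of 44 markers of other cells, which removed 512 of 846 Folr2-low macrophages, 33 genes were higher and 31 lower than in monocytes, 18 and 24 against Folr2-high macrophages, and 28 and 20 in Cxcl9 macrophages, while the Folr2-low share was 12.5% of the cells of all kinds left by the same filter. With 50 molecules in each tag, 51 and 33 were called against monocytes, 27 lower against Folr2-high macrophages, and 29 higher in Cxcl9 macrophages. Thinned to 2000 molecules, the counts were 39 and 26, 20 and 26, and 11 and 37, and 208 genes differed between tags. Fewer genes could be measured there, and some of the leading and called list genes that could be measured lost their calls. These were 6 against monocytes, 1 against Folr2-high macrophages, 8 between Cxcl9 and Spp1 macrophages and 5 between tags. A C1q limit of 20 left 27 genes higher in Cxcl9 macrophages and a share of 5.23%, and a limit of 5 gave 10.8%. The share of cells that are C1q macrophages without Folr2, Cd163 and Cbr2 was 6.38% without Folr2, Cd163 and Cbr2 molecules, 7.39% without T cell molecules and 8.66% at 10% mitochondrial molecules. With 150 molecules over the tags 190 genes differed between tags. Leaving out a tag asks for agreement in fewer tags and gave 134 to 162 genes higher and 81 to 112 lower than in monocytes, 52 to 90 and 67 to 107 against Folr2-high macrophages, and 103 to 123 and 103 to 118 in Cxcl9 macrophages. Calls that ended in 4 or more alternatives and were not given with the results were Trbc2 against monocytes (4 of 18), Ciita and Ccr3 against Folr2-high macrophages (4 of 16 and 4 of 15), Ass1, Ccl7 and Fcgr4 in Cxcl9 macrophages (4 of 17, 6 of 18 and 5 of 18), and Ifit2, Ifitm6 and Irf4 between tags (4 of 13, 12 and 10). Directions turned for Hbb-bt against Folr2-high macrophages (0.32), and between tags for Cma1 (-0.14), Cpa3 (-1.56) and Fcer1a (-1.62) without the richest cell, Ccnb1 (-0.21) with C1q sums down to 5, Mmp8 (-0.96) with 20 and Top2a (-0.10) without T cell molecules. Apart from the settings whose construction gives it, the cause was not tested. Ratios between classes were taken within each tag, so they are paired by tag, but no further block by replicate could be fitted, as the labels give no replicate numbers and each genotype has 1 tag.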

Other observations

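Inhibitory receptors and ligands and transcription factors were not called in Folr2-low macrophages against either class, with median ratios of 0.01 and 0.00 against monocytes and -0.02 and -0.04 against Folr2-high macrophages. Havcr2, which encodes TIM-3, had 55.3, 73.3 and 88.1 CPM in Folr2-low macrophages, against 33.8, 42.8 and 45.6 CPM in Folr2-high macrophages and 79.0, 79.5 and 76.6 CPM in monocytes. Siglec1, the sialoadhesin of tissue macrophages, had 34.0, 37.0 and 41.6 CPM, against 79.6, 58.5 and 83.4 CPM in Folr2-high macrophages and 44.0, 24.8 and 33.9 CPM in monocytes. Pdcd1lg2 had 9.22, 50.2 and 18.2 CPM, against 4.66, 16.3 and 5.74 CPM in Folr2-high macrophages and 8.64, 19.6 and 10.4 CPM in monocytes, with tag 9 highest in all 3 classes. Maf, a factor of resident-type macrophages, had 503, 363 and 349.6 CPM, against 896, 591 and 688 CPM in Folr2-high macrophages and 389.9, 218 and 265 CPM in monocytes, its middle level in tags 8, 9 and 10 alike.

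Fcgr4, an activating receptor for IgG, was the one Fc receptor gene of 4 that was called between the states, with 401, 505 and 609 CPM in Cxcl9 macrophages, against 157, 236 and 176 CPM in Spp1 macrophages (1.35), a call that ended in 5 of 18 alternatives. Ctsl, a lysosomal protease, was the one of 14 lysosomal genes called, with 209, 162 and 344 CPM in Cxcl9 macrophages, against 945, 1123 and 995 CPM in Spp1 macrophages (-2.18). Thbs1, the matrix protein thrombospondin, had 279, 1216 and 1189.8 CPM, against 3695, 3054 and 3609 CPM (-1.60), and C3, the central complement component, had 157, 239 and 231 CPM, against 54.1, 88.8 and 46.8 CPM (1.54).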
